A study of Mus musculus with 22 samples.

Results

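The genes described here are 9 genes that mark B cells and the antibody-secreting plasma cells they become: Ms4a1, Cd79a, Cd79b, Pax5, Ighm, Ighd, Igha, Jchain and Tnfrsf17. They were chosen by name, with earlier results of these data known. All 9 were among the 55367 genes of the deposited read count table and among the 22409 genes with enough reads to be tested. The series holds 22 RNA-seq libraries from mouse liver, each labelled as HSC, which commonly stands for hepatic stellate cells. Control mice received chow and the others received CDA-HFD, a high-fat diet that lacks choline and is described as amino-acid adapted, a model of steatohepatitis with fibrosis. Control libraries number 3, 2, 2 and 3 at zeitgeber times ZT0, ZT6, ZT12 and ZT18, and diet libraries number 3 at each time, where ZT0 is lights on and ZT12 is lights off. The labels give an age of 20 weeks and a diet begun at 8 weeks of age and kept for 12 weeks, while another field for the diet samples gives 6 months. Strain, sex, the way the cells were isolated and whether each library came from its own animal do not appear in the labels used here, so the p-values measure only the spread between these libraries.

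A B cell senses antigen through a membrane immunoglobulin of class M or D, whose heavy chains are encoded by Ighm and Ighd, joined to the signalling pair made from Cd79a and Cd79b. Pax5 is the transcription factor that holds B cell identity, and Ms4a1 encodes the surface protein CD20. When a B cell becomes a plasma cell it shuts down Pax5 and Ms4a1 and secretes antibody: Igha encodes the heavy chain of immunoglobulin A, Jchain encodes the chain that joins immunoglobulin A or M units into polymers, and Tnfrsf17 encodes BCMA, a survival receptor of plasma cells. The liver receives blood from the gut and is known to hold B cells and plasma cells among its other leukocytes.

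The start regions of a receptor gene, Cd79a, and of a secretion gene, Jchain, are shown as examples, not for their rank among the 9 genes. Both come from RefSeq on GRCm38.p6, run 5′ to 3′ along the gene's strand from 250 bases before the transcription start to 50 bases after it, and capitals mark matches to the motifs named below them. Of the 9 genes, 4 were matched to a start region by symbol: Cd79a, Jchain, Pax5 and Tnfrsf17.
Cd79a, chr7:24897247-24897546, plus strand: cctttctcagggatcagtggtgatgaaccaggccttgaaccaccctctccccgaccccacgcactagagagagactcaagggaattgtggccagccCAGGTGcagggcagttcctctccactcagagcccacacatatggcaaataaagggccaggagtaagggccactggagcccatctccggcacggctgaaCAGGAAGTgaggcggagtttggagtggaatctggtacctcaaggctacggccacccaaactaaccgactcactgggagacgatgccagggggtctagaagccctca
Jchain, chr5:88527848-88528147, minus strand: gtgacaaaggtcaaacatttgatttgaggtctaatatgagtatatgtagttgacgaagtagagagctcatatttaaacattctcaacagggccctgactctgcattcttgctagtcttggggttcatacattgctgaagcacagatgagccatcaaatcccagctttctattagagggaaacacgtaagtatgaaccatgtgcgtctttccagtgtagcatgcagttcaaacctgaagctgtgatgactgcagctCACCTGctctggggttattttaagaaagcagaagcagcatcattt
Searched on both strands were the octamer ATGCAAAT of immunoglobulin promoters, the core CCCNNGGG bound by EBF1, the ETS family sequence CAGGAAGT and the E-box CAGGTG. The last pair was chosen after the sequences were seen. Of 32851 start regions of the same length, 1.74% held the octamer, 13.7% the EBF1 core, 3.33% the ETS sequence and 20.2% the E-box. Cd79a held the E-box at -154 to -149 and the ETS sequence at -56 to -49. Jchain held the E-box, read on the other strand as CACCTG, at 6 to 11. Positions are counted from the RefSeq transcription start. No match to these motifs lay in the windows of Pax5 and Tnfrsf17.

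In the GENCODE M21 annotation of GRCm38, the 3 heavy chain genes lie on the minus strand of chromosome 12 in the order Igha (113254830 to 113260236), Ighd (113406604 to 113416324) and Ighm (113418558 to 113422730). Cd79a lies on chromosome 7 (24897381 to 24902197, plus strand), Cd79b on chromosome 11 (106311341 to 106314762, minus strand) and Jchain on chromosome 5 (88519809 to 88527891, minus strand). The GENCODE start of Cd79a lies upstream of its RefSeq start, within the window shown above. The motif positions given for Cd79a therefore hold for the RefSeq start only. Ms4a1 lies on chromosome 19 (11249675 to 11266241, minus strand), Pax5 on chromosome 4 (44524757 to 44710487, minus strand) and Tnfrsf17 on chromosome 16 (11313812 to 11320074, plus strand). The RefSeq window searched for Pax5, 44710645 to 44710944, lay wholly upstream of its GENCODE start. The lack of a match in Pax5 therefore holds for the RefSeq start only. Ms4a1 overlaps 4930526L06Rik on the other strand, and 4 annotated genes lie within or across Pax5. The strand setting of the counting is not given, so reads in those overlaps cannot be told apart.

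Total counts ran from 19754805 to 41665623 per library. On the first principal component of log2 CPM (40.2% of the variance) the libraries parted by diet, and control ZT0 replicate 2 lay at -46.6 while the other controls lay between -95.8 and -126.0. Control ZT18 replicate 1 lay apart on the second component. The summed level of 8 stellate cell markers was 47.4 to 144 CPM in the control libraries and 42.2 to 78.2 CPM under diet. The summed level of 7 endothelial markers was 11495 to 22873 CPM in control and 785 to 1771 CPM under diet, so that stellate markers did not lead in the libraries labelled HSC.

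Genes of the B cell receptor, Ighm, Ighd, Cd79a and Cd79b, were higher under diet by 2.06 to 2.42 on the log2 scale, and 8 of the 9 genes were called higher over all 4 times, while Tnfrsf17 was near the limit of detection in both diets. A gene is called where edgeR's quasi-likelihood test gives a Benjamini-Hochberg adjusted p under 0.05 over all genes tested. In this comparison 27.5% of all tested genes were called higher and 24.9% lower (52.4% in all), and the median log2 change was 2.15 for the 9 genes and 0.08 for all tested genes. Without the control libraries that lay apart, ZT0 replicate 2 and ZT18 replicate 1, the 8 genes were called with log2 changes of 1.89 to 2.47. In a bulk library, more cells of a type and more RNA per cell cannot be told apart. Levels below are CPM, reads of a gene scaled to the TMM-adjusted size of its library, and changes are log2 differences with their standard errors, diet minus control.

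**Figure D1:**
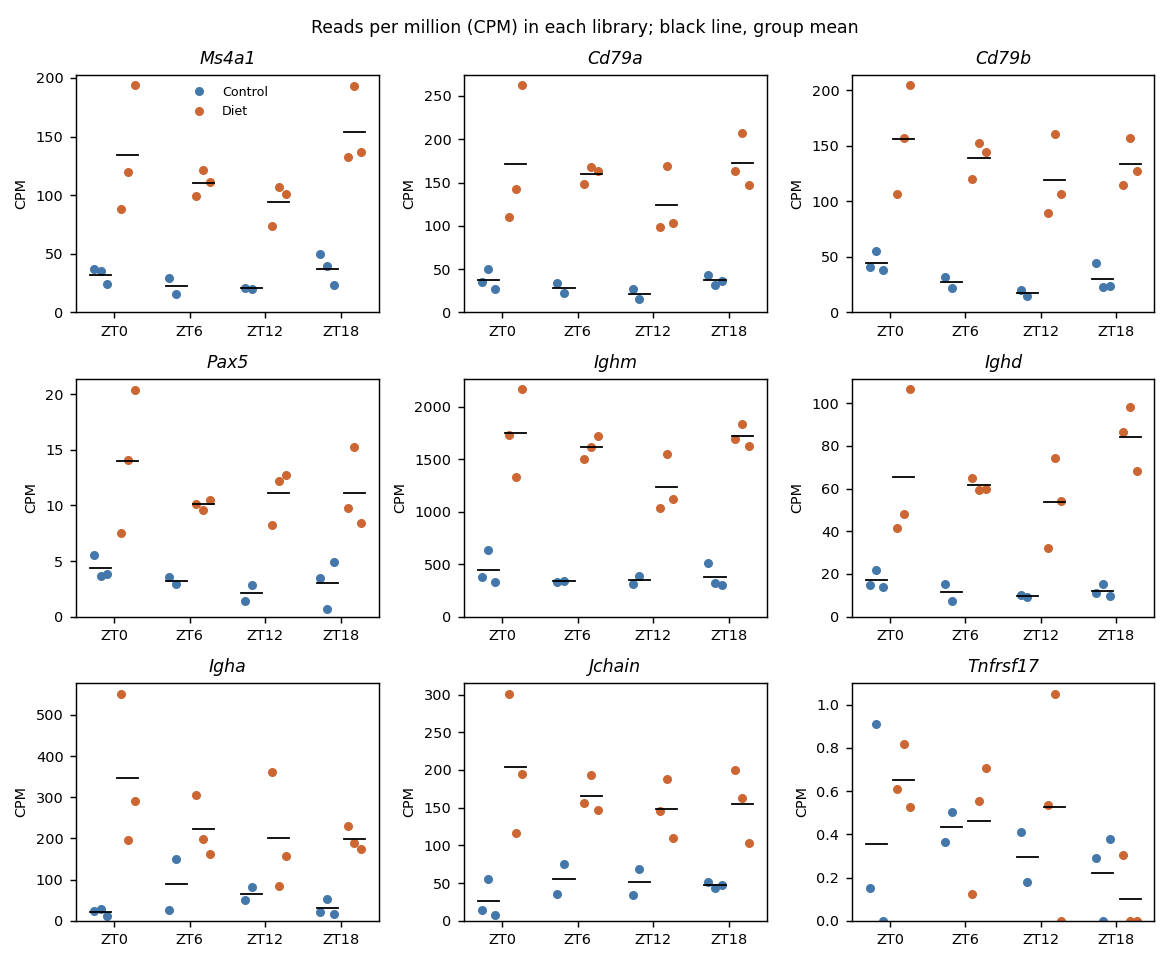
Each point is 1 library's level of a gene in CPM, for control and diet libraries at each zeitgeber time. All diet libraries of Ms4a1, Cd79a, Cd79b, Pax5, Ighm, Ighd and Jchain lie above all control libraries of the same gene, Igha overlaps through 1 control library at ZT6, and Tnfrsf17 stays at or below 1.05 CPM.

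Cd79a, whose protein carries the receptor's signal into the cell, had 15.5, 32.7 and 50.7 CPM as its lowest, median and highest values in the 10 control libraries, and 98.9, 155 and 262 CPM in the 12 diet libraries. The diet libraries all lay above the controls, and the log2 change was 2.37 ± 0.17 (edgeR, adjusted p = 1.81e-10). Cd79b, the other member of the signalling pair, ran from 14.8 through 28.0 to 55.4 CPM in control and from 89.7 through 136 to 205 CPM under diet. Its ranges did not overlap either, and it rose by 2.27 ± 0.16 on the log2 scale (edgeR, adjusted p = 1.02e-10). The changes of the pair thus differed by less than 1 standard error.

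Ighm, the heavy chain of immunoglobulin M in both membrane and secreted form, was the most abundant of the 9 genes. Its lowest, median and highest values were 298, 338 and 637 CPM in control and 1039, 1625 and 2174 CPM under diet, with means of 384 ± 107 CPM (SD, n = 10) and 1579.7 ± 308 CPM (SD, n = 12). It rose by 2.06 ± 0.13 (edgeR, adjusted p = 2.55e-11). Ighd, whose product is found mainly on mature naive B cells, ran from 7.42 through 12.5 to 22 CPM in control and from 32.3 through 62.5 to 107 CPM under diet. No diet library of Ighd fell into the control range, and it rose by 2.42 ± 0.19 (edgeR, adjusted p = 8.67e-10).

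Ms4a1, the gene of CD20, had 15.3, 26.7 and 49.4 CPM as its lowest, median and highest values in control and 73.8, 116 and 194 CPM under diet, a log2 change of 2.15 ± 0.17 (edgeR, adjusted p = 5.71e-10). Pax5 was lower throughout, with 0.655, 3.52 and 5.54 CPM in control and 7.48, 10.3 and 20.4 CPM under diet. Every diet library of Pax5 exceeded every control, and its log2 change was 1.90 ± 0.27 (edgeR, adjusted p = 4.14e-06).

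Jchain ran from 7.50 through 45.9 to 75.2 CPM in control and from 103 through 159 to 301 CPM under diet, and rose by 1.95 ± 0.28 (edgeR, adjusted p = 4.12e-06). Igha was the most variable of the called genes, with a coefficient of variation over libraries of 92.0% in control and 50.8% under diet, against 27.9% and 19.5% for Ighm. Its values ran from 12.0 through 27.2 to 150.4 CPM in control and from 84.2 through 198 to 550.5 CPM under diet. Of the 12 diet libraries 11 exceeded the highest control, and the log2 change was 2.43 ± 0.33 (edgeR, adjusted p = 2.30e-06). Tnfrsf17 gave 0 to 19 reads in a control library and 0 to 25 under diet, or 0.318 ± 0.268 CPM (SD, n = 10) and 0.436 ± 0.349 CPM (SD, n = 12). Its log2 change of 0.17 ± 0.84 was not called (edgeR, adjusted p = 0.898), with 73 control reads and 128 diet reads in all.

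For 7 of the 9 genes every diet library lay above every control library, as did 7.35% of all tested genes. Within each single time this held for 8 of the 9 genes, all but Tnfrsf17, against 20.4%, 28.6%, 26.7% and 22.6% of tested genes at ZT0, ZT6, ZT12 and ZT18.

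Per kilobase of exon, Ighm stood above the other genes in both diets, at 204 CPM per kilobase in control and 838 under diet. Cd79a (22.1 in control, 108 under diet), Cd79b (22 and 95.6), Igha (17.3 and 90.6) and Jchain (17.2 and 66.8) followed at similar CPM per kilobase. Ighd (6.76 and 34.8) and Ms4a1 (4.76 and 19.9) were lower, and Pax5 (0.370 and 1.31) and Tnfrsf17 (0.391 and 0.535) the lowest. The length used was that of the merged exons of all annotated transcripts. It was 8853 bases from 20 transcripts for Pax5 and 815 from 1 for Tnfrsf17. The order of these levels need not be that of transcript abundance. The constant region genes are counted with no variable segment, so these levels describe the annotated exons only.

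**Figure D2:**
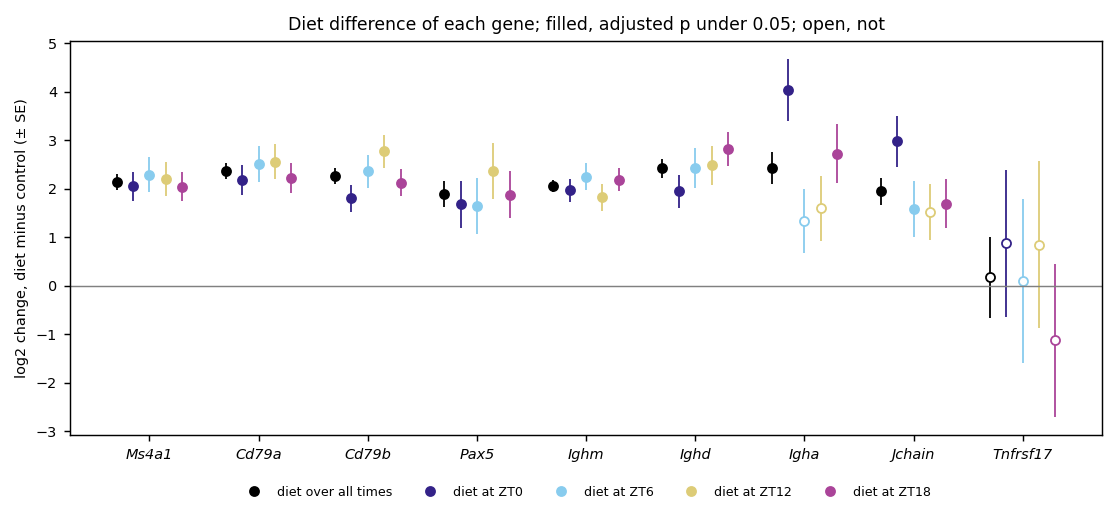
Points give the log2 change between diet and control for each gene over all times and at each zeitgeber time, with bars of 1 standard error. Ms4a1, Cd79a, Cd79b, Ighm and Ighd lie between 1.80 and 2.82 at every time, Igha ranges from 1.33 at ZT6 to 4.04 at ZT0, and the wide bars of Tnfrsf17 span 0.

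Taken time by time, the 5 genes Ms4a1, Cd79a, Cd79b, Ighm and Ighd were called higher at all 4 times. The number of genes called higher was 8, 7, 6 and 8 in the order ZT0, ZT6, ZT12 and ZT18, where 13.5%, 14.8%, 14.3% and 15.3% of all tested genes were called higher (30%, 30.1%, 29.6% and 30.9% in either direction). The log2 changes of Ms4a1 lay between 2.04 ± 0.30 and 2.30 ± 0.36 and those of Cd79a between 2.18 ± 0.31 and 2.57 ± 0.37. Those of Cd79b went from 1.80 ± 0.28 at ZT0 to 2.78 ± 0.34 at ZT12, and those of Ighd from 1.95 ± 0.34 at ZT0 to 2.82 ± 0.35 at ZT18. The change of Ighd at ZT6 was 2.43 ± 0.41, and 3.04 without control ZT6 replicate 1. None of these differences between times was called by the test of the diet by time interaction (edgeR, adjusted p = 0.520 for Cd79b and 0.696 for Ighd).

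In the same order Pax5 changed by 1.68 ± 0.49, 1.65 ± 0.57, 2.37 ± 0.58 and 1.88 ± 0.49, each called (edgeR, adjusted p = 0.0112, 0.0327, 0.00378 and 0.00544). That at ZT6 was lost without any of the 5 libraries of that time (adjusted p = 0.0511 to 0.197) and with the replicate block (0.0556), that at ZT0 without diet ZT0 replicate 3 (0.0722) and that at ZT12 without control ZT12 replicate 1 (0.0744). Without control ZT12 replicate 2 the change at ZT12 was 2.96.

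The secretion genes varied more between times. Igha in control was 22.6, 28.3 and 12.0 CPM at ZT0, 26.0 and 150.4 at ZT6, 50.2 and 81.8 at ZT12, and 20.9, 52.7 and 15.9 at ZT18. Under diet it was 550.5, 197 and 291 CPM at ZT0, 305, 199 and 163 at ZT6, 362, 84.2 and 157 at ZT12, and 229, 189 and 175 at ZT18. The diets did not overlap within any of the times, and both the lowest control level and the highest diet level were found at ZT0. The log2 change of Igha was called at ZT0 (4.04 ± 0.64, edgeR, adjusted p = 4.68e-05) and ZT18 (2.73 ± 0.61, adjusted p = 0.00145). It was not called at ZT6 (1.33 ± 0.66, adjusted p = 0.147) or ZT12 (1.61 ± 0.67, adjusted p = 0.0798). The interaction itself was not called (edgeR, adjusted p = 0.233, unadjusted p = 0.0189). Without control ZT6 replicate 2, the library at 150.4 CPM, the change at ZT6 was 3.08 (adjusted p = 0.00995), and over the fits that left out 1 library it lay between 0.55 and 3.08. That at ZT12 lay between 0.87, without diet ZT12 replicate 1 (0.357), and 1.99. It was called without control ZT6 replicate 1 (0.0420) or replicate 2 (0.0418), without diet ZT12 replicate 2 (0.0367), with the replicate block (0.0487) and under the filter on a mean CPM of 5 (0.0486). With no filter on low counts both times were called (1.20e-14 at ZT6 and 1.27e-19 at ZT12). The change at ZT18 was 3.43 without control ZT18 replicate 2.

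Jchain in control was 14.9, 55.1 and 7.50 CPM at ZT0, 35 and 75.2 at ZT6, 34.6 and 68.2 at ZT12, and 51.7, 44.1 and 47.8 at ZT18. Under diet it was 301, 117 and 195 CPM at ZT0, 156, 194 and 147 at ZT6, 146, 188 and 109.5 at ZT12, and 199.5, 163 and 103 at ZT18. As for Igha, the lowest control libraries and the highest diet library of Jchain were at ZT0, with no overlap of the diets at any time. The log2 change of Jchain was called at ZT0 (2.99 ± 0.53, edgeR, adjusted p = 0.000149), ZT6 (1.59 ± 0.58, 0.0426) and ZT18 (1.70 ± 0.50, 0.0129), and not at ZT12 (1.52 ± 0.57, 0.0519). The call at ZT6 was lost without any 1 of 7 libraries, at adjusted p of 0.0502 to 0.346: control ZT6 replicate 1, control ZT18 replicate 3, diet ZT0 replicate 3, diet ZT18 replicate 2 and the 3 diet libraries of ZT6. That at ZT18 was lost without diet ZT18 replicate 1 (0.0509), and without control ZT6 replicate 2 the change at ZT6 was 2.22. The change at ZT12 was called under all 8 settings that did not leave out 1 library alone, at adjusted p of 2.25e-16 (no filter) to 0.0492 (RLE scaling), with 0.0190 for the replicate block and 0.0407 for DESeq2. It was also called in 8 of the 22 fits that left out 1 library (adjusted p = 0.00661 to 0.330 over the 22). The interaction was not called for Jchain (edgeR, adjusted p = 0.529), but was without control ZT0 replicate 2 (0.0177), the library that lay apart, and the change at ZT0 was then 4.18.

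The order of the 8 group means was the same in one respect for each of the 8 called genes, with the 4 diet groups above the 4 control groups. Within a diet most neighbouring groups overlapped in their libraries. For Ms4a1, Cd79a, Ighm, Ighd, Igha and Jchain, 6 of the 7 neighbouring pairs in the order overlapped, and the remaining pair was the lowest diet group and the highest control group. For Cd79b and Pax5 5 of the 7 pairs overlapped. Ms4a1, Cd79a and Ighd were highest at ZT18 under diet, with group means of 154 ± 33.7, 173 ± 30.6 and 84.4 ± 14.9 CPM (SD, n = 3). Cd79b, Pax5, Ighm, Igha and Jchain were highest at ZT0 under diet.

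Over the 4 times within control, 0 of the 9 genes were called, where 5.74% of tested genes were (edgeR). At an unadjusted p under 0.05 there were 3, Ms4a1 (0.0496), Cd79b (0.00336) and Igha (0.0133), and DESeq2 called 1, Cd79b (adjusted p = 0.00452). Cd79b in control was 40.8, 55.4 and 38.0 CPM at ZT0, 31.9 and 22.2 at ZT6, 20.0 and 14.8 at ZT12, and 44.8, 22.5 and 24.0 at ZT18. All libraries at ZT0, ZT6 and ZT18 thus lay above those at ZT12, and edgeR's adjusted p was 0.0547. It was called with library size scaling only (0.0382), under the filter on a mean CPM of 5 (0.0290) and with no filter (1.93e-10). It was also called when any 1 of 5 libraries was left out, at adjusted p of 0.0196 (control ZT18 replicate 1) to 0.0491, the others being diet libraries of ZT0 (replicates 1 and 3) and ZT12 (replicates 1 and 2). In the same way Jchain was called without control ZT0 replicate 2 (0.00967) and Igha without control ZT6 replicate 1 (0.0254). The control mean was lowest at ZT12 for Ms4a1, Cd79a, Cd79b, Pax5 and Ighd, and lowest at ZT0 for Igha and Jchain.

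Under diet 0 of the 9 genes were called over the 4 times by edgeR, where 1.08% of tested genes were; 0 had an unadjusted p under 0.05 and DESeq2 called 0. The diet by time interaction was called for 0 of the 9 genes, against 0.959% of tested genes, with 1 gene, Igha, at an unadjusted p under 0.05, and 0 by DESeq2.

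Ratios of counts within a library compare the genes with each other and need no scaling between libraries. Igha reads per 100 Ighm reads had a lowest, median and highest value of 3.66, 6.95 and 43.8 in control and 5.45, 13.4 and 34.8 under diet. The ranges overlapped almost wholly, and the mean log2 difference of 0.45 was not significant by an exact two-sided permutation of diet labels within each time (40000 arrangements, p = 0.312, adjusted p = 0.432 over 3 ratios). The difference was 2 at ZT0 and 0.69 at ZT18, and below 0 at both other times (-0.48 at ZT6, -0.42 at ZT12).

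Ighd reads per 100 Ighm reads ran from 2.16 through 3.37 to 4.69 in control and from 2.41 through 4.26 to 5.33 under diet (log2 difference 0.33, exact permutation p = 0.0826, adjusted p = 0.248). Jchain reads per 100 Cd79a reads, a plasma cell gene set against a receptor gene, ran from 27.4 through 125 to 440.1 in control and from 70.0 through 106 to 273 under diet (log2 difference -0.30, exact permutation p = 0.432, adjusted p = 0.432). That difference was 1.24 at ZT0 and -0.87, -0.99 and -0.58 at ZT6, ZT12 and ZT18. None of the 3 ratios differed between diets beyond the spread of the libraries, which does not show that they were equal.

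**Figure D3:**
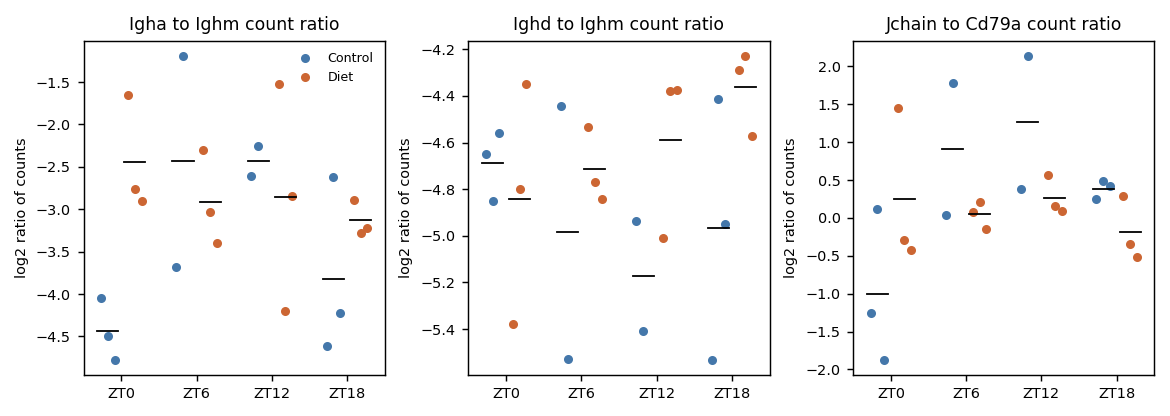
Each point is 1 library's count ratio on a log scale, by diet and zeitgeber time. Control and diet libraries overlap in all 3 ratios, and the control ratios of Igha to Ighm reach from 3.66 to 43.8 reads per 100.

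Among the reads of 8 heavy chain constant genes, which include Ighe, Ighm took a median of 82.2% in control and 74.0% under diet, and Igha 6.05% and 9.90%. Ighd took 2.81% and 3.07%. Of the immunoglobulin G genes, Ighg2c took 1.04% and 4.24%, Ighg2b 2.56% and 5.32%, Ighg1 2.21% and 2.03%, and Ighg3 0.305% and 0.286%. Immunoglobulin M transcripts thus made up most of the heavy chain reads in both diets. These shares were not tested.

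The levels of the receptor genes moved together across libraries. Likeness was measured as the root mean square, over the 22 libraries, of the difference between 2 genes' log2 CPM after each was centred on its mean, so a smaller value means a more similar pattern. From Cd79a the distance was 0.25 to Cd79b, 0.29 to Ms4a1, 0.30 to Ighd and 0.35 to Ighm, against 0.85 to Jchain and 1.15 to Igha. Jchain was nearer to Ighm (0.69) and Igha (0.78). The libraries share the diet contrast and each library's own cell content, so these distances are a description.

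Among 10531 other genes compared, those nearest to Cd79a included H2-Ob (0.21), Fcmr (0.22), the receptor for immunoglobulin M, Fcer2a (0.27), which encodes CD23, and H2-DMb2 (0.29). Nearest to Jchain were Igkc (0.39), Iglv1 (0.40), Iglc1 (0.50), Bhlhe40 (0.51) and Igkj5 (0.51). Of those 5 genes 4 encode parts of immunoglobulin light chains, and Bhlhe40 encodes a transcription factor.

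Of 18 further genes of the receptor complex and B cell identity, 17 were called higher over all times and 1 lower, with a median log2 change of 2.29. The counts of this list and of those below stand beside 27.5% of all tested genes called higher and 24.9% lower. Blnk, the adaptor downstream of the receptor, changed by 2.52. Tnfrsf13c, the receptor for the survival factor BAFF, went from 7.36 to 51.8 CPM in mean level (log2 change 3.06 ± 0.19), and Cd72 changed by 2.06. The gene called lower was Ralgps2 (-0.71 ± 0.09).

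Of 8 signal transducers that other leukocytes use as well, 6 were called higher and 2 lower (median 2.03). Ptpn6, a phosphatase that dampens receptor signals, changed by 2.22, Pik3ap1 by 2 and Inpp5d by 1.19. The 2 lower genes were Lyn (-0.36) and Cd81, a surface protein that many cell types carry, at 1456 ± 254 CPM in control and 237 ± 54.0 CPM under diet (log2 change -2.66).

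Of 13 plasma cell and secretory genes 9 were called higher, 1 lower and 3 neither way (median 0.88). Irf4, a transcription factor of plasma cells, went from 13.9 to 63.9 CPM in mean level (log2 change 2.48). Prdm1, whose product shuts down the B cell programme, went from 8.52 to 39.0 CPM (2.05 ± 0.30), and Tnfrsf13b changed by 2.18, Mzb1 by 1.84 and Edem1 by 0.88. Not called were Xbp1 (-0.08), Txndc5 (-0.01) and Creld2 (0.09), which many secreting cells use, and Fkbp11 was called lower (-0.59), a call lost without control ZT12 replicate 2 or control ZT6 replicate 1. Prdm1, Xbp1, Txndc5, Creld2, Fkbp11, Ralgps2 and Lyn were named after their values were seen.

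Of 9 other immunoglobulin constant genes, 8 were called higher and 1, Ighe, was not (median 2.14). The kappa light chain Igkc went from 286 ± 84.0 to 1277 ± 406 CPM (log2 change 2.14 ± 0.19), and the lambda genes Iglc1, Iglc2 and Iglc3 changed by 1.76, 1.84 and 2.34. Some of these lambda genes are near copies of each other. The split of reads between those is therefore uncertain, as it is among the immunoglobulin G genes. Ighg2c (3.62 ± 0.51), Ighg2b (2.88 ± 0.60), Ighg1 (2.60 ± 0.64) and Ighg3 (2.06 ± 0.63), also named after their values were seen, were each called higher.

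Of 6 genes of B cell precursors 4 were tested and 2 called higher, where 52.4% of all tested genes were called in either direction. Dntt, which adds bases at the joints of antigen receptor genes, went from 12.9 to 51.9 CPM in mean level (2.38 ± 0.23). Vpreb1 was at 0.284 CPM in control and 0.473 CPM under diet (1.92 ± 0.72, edgeR, adjusted p = 0.0308), and that call was lost in 7 of the fits that left out 1 library (0.0509 to 0.0992) and under an additive model of diet and time (1.01, 0.282). Rag2 was at 0 in every control library and at a mean of 0.157 CPM under diet, and neither it nor Igll1 was called. Under the additive model Rag2 was called (adjusted p = 0.00754). Of 5 germinal centre genes tested, 3 were called higher, 1 lower and 1 neither way (median 0.41): Gcsam went from 2.55 to 27.2 CPM (3.57), Bcl6 changed by 1.07, S1pr2 by 0.29 and Fas, which many cells express, by -2.46. The call of S1pr2 (adjusted p = 0.0179) was lost without control ZT12 replicate 2 (0.0750) or control ZT6 replicate 2 (0.0571).

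Of 10 ligands that keep or attract B and plasma cells 8 were tested. Of these 5 were called higher, 0 lower and 3 neither way (median 2.11). Those not called were Cxcl13 (-0.33 ± 0.61), Tnfsf13 (-0.11 ± 0.41) and Madcam1 (1.88 ± 1.22), named after their values were seen. Ccl19 and Ccl21a were at 0 CPM in every library and were not tested. Tnfsf13b, which encodes the survival factor BAFF, went from 1.29 to 6.79 CPM in mean level (2.94 ± 0.42). Lta and Ltb, lymphotoxin genes of lymphoid tissue, changed by 2.65 and 2.34, and Cxcl12, a chemokine that retains plasma cells, by 1.02. Of 9 receptors for secreted immunoglobulin 5 were called higher and 2 lower (median 1.15). Fcgr3 and Fcer1g, an activating receptor and its signalling chain, changed by 1.98 and 1.15. The 2 lower genes were the inhibitory receptor Fcgr2b, from 3564 ± 569 to 230.3 ± 68.3 CPM (-4.00), and the neonatal receptor Fcgrt, from 1861 to 188 CPM (-3.36), both of which liver endothelium is known to express.

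**Figure D4:**
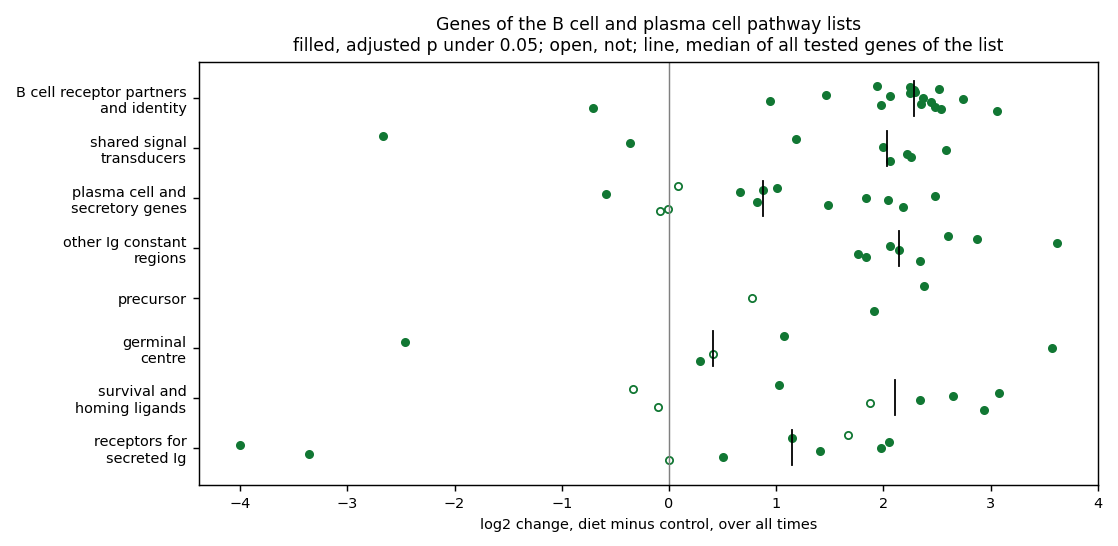
Each point is 1 tested gene of a pathway list, placed by its log2 change between diet and control over all times. Filled points passed an adjusted p of 0.05 and short lines mark list medians, which lie at 2.29 for the receptor partners and 0.88 for the plasma cell list. Rag2 and Ighe, whose standard errors are very wide, are not drawn, and the precursor list has no line.

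Markers of other blood cells and of liver cells moved with diet as well. Their counts, here and below, stand beside 27.5% of all tested genes called higher and 24.9% lower. The summed level of 5 B cell markers, all 5 called higher, was 62.4 to 175 CPM in control and 332 to 830.2 CPM under diet. That of 8 T cell markers, all 8 called higher, was 379.8 to 1632 and 2030 to 4662 CPM. All 6 NK cell markers and all 5 neutrophil markers were called higher too. Of 7 macrophage and Kupffer cell markers 4 were called higher and 1 lower, and their sum was 229 to 1457 CPM in control and 439 to 1412 CPM under diet. Among liver epithelial cells, all 6 cholangiocyte markers (321 to 868 CPM in control, 1121 to 4463 CPM under diet) and 5 of 6 hepatocyte markers (189 to 306 and 621 to 1456 CPM) were called higher. Of 6 conventional dendritic cell markers 5 were called higher and 1 lower. The median sum under diet was 4.53 times that in control for B cell and 3.30 times for plasma cell markers. It was 11.7 times for neutrophil markers, whose sums did not exceed 23.4 CPM in any library. For cholangiocyte, T cell and NK cell markers it was 4.02, 3.94 and 3.57 times. For hepatocyte, macrophage and conventional dendritic cell markers it was 3.46, 2.44 and 1.48 times.

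The summed level of 8 plasmacytoid dendritic cell markers, of which 6 were called higher and 2 lower, was 782 to 2151 CPM in control and 2882 to 4159 CPM under diet, with medians that differed 2.96 times. Those cells are known to carry transcripts of Jchain, Dntt and several genes of the B cell lists, and the log2 changes of their 6 higher markers ran from 2.14 (Irf8) to 2.7 (Cox6a2), while Bst2 (-0.80) and Tcf4 (-0.82) were lower. None of the 8 markers was at 0 in any library. All 7 endothelial markers were called lower. The part of plasmacytoid dendritic cells, of the other leukocytes, of liver epithelial cells or of the lower endothelial transcripts in the levels of the 9 genes was not tested.

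**Figure D5:**
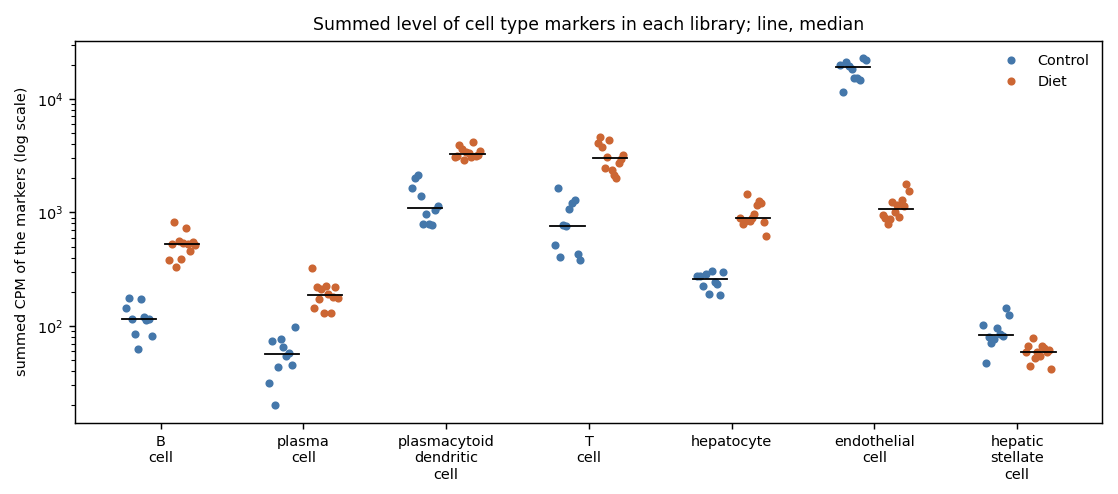
Each point is 1 library's summed CPM over a cell type's marker genes, on a log axis, for control and diet libraries. B cell, plasma cell, T cell and plasmacytoid dendritic cell sums lie higher under diet, and the endothelial sum falls from a median of 18913 CPM in control to 1074 CPM under diet.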

How the data were processed

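Per the labels, total RNA was prepared with a Promega kit for Illumina HiSeq sequencing. The submitters' processing notes name the aligner STAR 2.7.9a, the counter HTSeq, DESeq2 and the build GRCm38 (mm10). Annotation, strand setting and batches do not appear in the sources used here. The authors deposited whole-number read counts per gene symbol, which were used as they are, and the deposited normalised table was not used here. Groups were taken from the sample titles.

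Counts were tested with edgeR 4.0.16 (limma 3.58.1, R 4.3.3): filterByExpr with the 8 groups, TMM scaling, 1 model holding the 8 group means, glmQLFit and glmQLFTest, and Benjamini-Hochberg adjustment over the 22409 genes tested, with a threshold of 0.05. Standard errors are the log2 change divided by the square root of F. TMM factors were 0.860 to 1.10. Diet minus control was tested as the average over the 4 times and at each of them, and F tests covered the times within each diet and the diet by time interaction. Alternatives were DESeq2 1.42.0, other scalings and filters on low counts, other models, a replicate block and leaving out libraries. Ratios used log2 of counts plus 0.5. The script was tested on simulated data.

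The members and lists were chosen with earlier results of these data known. All 9 genes are reported, with up to 4 genes of each pathway list that had the smallest p over all times and the 5 nearest to Cd79a and to Jchain with a mean log2 CPM of at least 2, except 1 gene that is not reported here. Replicates of 1 group were distinct libraries: the chi-square of their counts was 17.5 to 87.9 times its degrees of freedom over 20 pairs. The replicate numbers gave no sign of pairing control with diet libraries. The deviations of same-numbered libraries from their group means correlated at -0.143 to 0.0450 over 10 pairs, 0 of them over 0.1. With 2 or 3 libraries in a group, this cannot exclude a shared batch or other pairing. No sequence was read by coordinates. Start regions came from RefSeq.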

Additional observations from a re-analysis of the deposited data

Results flagged for a closer look

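Igha in the 10 control libraries held 1 library far from the others. Control ZT6 replicate 2, at 150.4 CPM, stood above the next library by 0.496 of the whole range, over Dixon's critical value of 0.466 for 10 values. The next highest was control ZT12 replicate 2, at 81.8 CPM. Dixon's test was run on 12 sets of values, and chance flags about 1 in 20. The same library was also the highest control for Jchain, at 75.2 CPM.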

How the results depend on the processing

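The 8 genes called higher over all times kept their direction and call in all 240 values from 30 alternative settings, with log2 changes of 1.78 to 2.87 and a largest adjusted p of 4.16e-05. Tnfrsf17 changed sign when 1 library was left out: -0.93 to 0.70 over all times, -0.34 to 0.54 at ZT6 and -0.12 to 1.55 at ZT12. Of 3286 alternative values for single genes, 3204 kept direction and side of the threshold. The count of the 9 genes called over times in control (0) was 1 with library size scaling only, at a mean CPM of at least 5, under DESeq2 and without both libraries that lay apart, 6 with no filter and 0 to 1 with 1 library left out. Under diet it was 3 with no filter. For the diet by time interaction it was 3 with no filter, 1 without both libraries apart and 0 to 1 with 1 left out. The number lower in the plasma cell list (1) was 0 with library size scaling only, with no filter and at the same CPM filter, and 0 to 1 with 1 left out. Precursor genes called higher (2) were 1 at that CPM filter and 1 to 2 with 1 left out, and ligands called higher (5) were 3 at that filter. That CPM filter left 10804 genes to be tested, and genes with a lower mean, such as Fkbp11 and Vpreb1, dropped out of these counts. The cause of the other changes was not tested. The replicate block gave counts of 8, 8, 6, 8 and 8 members called over all times and at ZT0, ZT6, ZT12 and ZT18. With 1 library left out, the log2 difference was 0.14 to 0.76 for Igha to Ighm, 0.19 to 0.46 for Ighd to Ighm and -0.52 to -0.08 for Jchain to Cd79a, none significant.

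With library size scaling only, the median log2 change of all genes moved from 0.08 to 0.25 and the share of called genes that were higher from 52.4% to 62.6%. Over all tested genes, the 1287 called over times in control became 2866 with no filter and 3103 under DESeq2 (790 to 1957 with 1 left out), the 241 under diet became 561, 1500, 425, 1128 and 632 with library size scaling, no filter, a mean CPM of at least 5, DESeq2 and without both libraries apart (96 to 663), and the 215 for diet by time became 2085 with no filter, 388 at that CPM filter, 1464 under DESeq2, 123 with the block and 1004 without both apart (76 to 1086). At the CPM filter Tnfrsf17 has no value. The lowest read numbers among the 9 genes were those of Tnfrsf17, at 0 to 25 a library; whether depth set the other unstable calls was not tested.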
